A study of Mus musculus with 2 samples.

Results

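The genes described here encode enzymes that write and erase marks on histones and DNA: the KMT, SETD and EZH histone methyltransferases, the KDM histone demethylases, the HDAC and SIRT deacetylases, the DNMT DNA methyltransferases and the TET dioxygenases. They were chosen by symbol alone, as genes on the array whose mouse symbol starts with Kdm, Kmt, Setd, Ezh, Hdac or Dnmt, or with Sirt and a digit, or is Tet1, Tet2 or Tet3. No measured value entered the choice, which gave 61 genes of the 20656 named on the array. Kmt2a, Setd1b, Setd9 and Setdb2 were listed but were matched to no probe here and were not analysed, and the symbol rule leaves out related enzymes with other names, such as Ehmt1, Dot1l and Uty, which are given further on as partners.

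The cells were bone marrow-derived macrophages (BMDMs), which are macrophages grown from mouse bone marrow with the growth factor M-CSF, taken from mice that were male, 8 weeks of age and of the genotype Crif1 f/f. These mice carry loxP sites around Crif1, which encodes a mitoribosomal factor, in both groups, and no Cre is stated for these arrays. One group was left untreated and the other received IL-4 for 18 h, with 1 single-colour Agilent array per group. IL-4 is a Th2 cytokine that drives macrophages toward the M2 state, and the study used these arrays to look for factors that macrophages express in response to it. With 1 array per group no test between groups was possible and no p-value is given.

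Methylation of lysine 4 of histone H3 (H3K4) marks promoters and enhancers that are in use, whereas methylation of lysine 27 (H3K27) by the EZH enzymes of Polycomb repressive complex 2 (PRC2), methylation of lysine 9 (H3K9) and methylation of DNA at CG dinucleotides mark silent genes. HDACs and sirtuins remove acetyl groups, the sirtuins with NAD as cosubstrate. TET enzymes and the JmjC demethylases, which include all KDM families but KDM1, need 2-oxoglutarate, and TET enzymes oxidise 5-methylcytosine. In macrophages many of these enzymes act as corepressors or coactivators of signal-dependent transcription factors such as STAT6, the factor that IL-4 activates.

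Of the 61 genes, only Tet2 was past 1.5-fold when each array was scaled on its 75th percentile, and its start region is shown first for its base composition. The window of 250 bases upstream of the annotated Tet2 start (RefSeq, GRCm38.p6, chr3:133544391-133544640, minus strand, read 5′ to 3′) holds 51 CG dinucleotides, printed in capitals, and 0.067% of the 32851 annotated starts of all genes had at least as many. The median was 6 over all starts and 17 over the 73 starts of the 51 enzymes that were matched, which ranged from 0 to 56. A stretch of 14 bases (ccgcgagggagcga) occurs 5 times in the Tet2 window at steps of 42 bases.
Tet2: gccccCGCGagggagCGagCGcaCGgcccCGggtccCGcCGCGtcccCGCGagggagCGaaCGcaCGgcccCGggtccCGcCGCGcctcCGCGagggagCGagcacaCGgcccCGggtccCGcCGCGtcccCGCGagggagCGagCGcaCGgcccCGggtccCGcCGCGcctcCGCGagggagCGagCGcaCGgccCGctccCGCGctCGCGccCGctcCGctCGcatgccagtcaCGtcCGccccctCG
The windows were also searched for the letters TTCNNNNGAA, the spacing that STAT6 is known to favour, and TTCNNNGAA, the spacing of other STAT factors. Both patterns read the same on either strand. TTCNNNNGAA was in 5.85% of all starts and in 2 enzyme starts, those of Hdac4 and of Sirt6, which is 2.74%. TTCNNNGAA was in 7.02% of all starts and in 7 enzyme starts, which is 9.59%. These were starts of Dnmt3l, Kdm3a, Kmt2d, Setd7 and Sirt7 and 2 of the Hdac7 starts, and no enzyme start held both patterns. The 3 Tet genes had neither in this window. The windows of Hdac7, which was higher after IL-4 under every scaling, and of Setd7, which was lower under every scaling, are shown with the matches in capitals, at chr15:97831768-97832017 and chr3:51560824-51561073 (both minus strand). The Hdac7 window shown is the start with 2 matches, while the other annotated Hdac7 starts held 1 or 0. A match is a description of the letters and was not tested for binding.
Hdac7: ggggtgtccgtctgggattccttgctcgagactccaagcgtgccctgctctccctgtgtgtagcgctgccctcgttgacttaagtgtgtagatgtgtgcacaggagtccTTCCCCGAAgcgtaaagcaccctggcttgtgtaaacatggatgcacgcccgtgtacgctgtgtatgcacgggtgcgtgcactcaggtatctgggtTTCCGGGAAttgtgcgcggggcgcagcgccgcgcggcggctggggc
Setd7: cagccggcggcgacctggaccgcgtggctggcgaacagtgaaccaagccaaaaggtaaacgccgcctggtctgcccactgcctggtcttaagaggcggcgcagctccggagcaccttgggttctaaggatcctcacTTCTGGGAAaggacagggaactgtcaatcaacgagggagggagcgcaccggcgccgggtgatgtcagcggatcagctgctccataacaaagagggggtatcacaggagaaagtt

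Signal is given throughout as log2 of the background-subtracted intensity minus the array's 75th percentile (9.84 without and 9.94 with IL-4), and differences are IL-4-treated minus untreated. Signals of different genes come from different probes and are not set against each other. The error beside a difference is the spot SD, which is the median SD between spots for probes printed in 10 spots at a similar signal. It leaves out the spread between cultures. Of the gene spots, 59.8% without and 57.4% with IL-4 carried the scanner software's flag for being well above background. The cells carried the macrophage markers, with 6 of 7 listed markers matched and all 6 well above background on each array, among them Csf1r and Adgre1, and all 4 IL-4 response genes on the list (Arg1, Retnla, Chil3 and Mrc1) were higher after IL-4 by at least 2.42 on the log2 scale. The summed intensity of the macrophage markers was 282000 in untreated and 268000 in IL-4-treated BMDMs, and 4 of the 6 were at least 1.5-fold lower after IL-4 (Fcgr1, Mertk, Itgam and Lyz2). That count was 2 when the arrays were scaled on their medians or on spike-in control probes. With the median over the probes of a gene it was 3. Among the lymphocyte markers, the T cell gene Cd3e was well above background on both arrays (intensities of 343 and 296), Ncr1 on the untreated array alone (at least 1.56-fold lower after IL-4), and the B cell genes Ms4a1 and Cd79a were at background (not well above background by the flag). Of the other cell types listed, neutrophil markers summed to 34700 and 34300, eosinophil markers to 929 and 1030 with Epx at background, and dendritic cell markers to 29100 and 31700 with Flt3 and Xcr1 at background. All 4 stromal markers, Col1a1, Col3a1, Pdgfra and Dcn, were well above background on both arrays, with sums of 90700 and 82700. Intensities and their sums are unscaled here and below. The sums rest mostly on a few bright probes and do not measure the share of a cell type. Csf1r and Lyz2 made up most of the macrophage sum, and Siglech (29100 and 31700) nearly all of the dendritic cell sum. The part of these cell types in the differences below was not tested, and in such bulk RNA fewer cells of a type and less RNA per cell cannot be told apart.

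Most of the enzymes gave a signal, and few were far apart between the arrays. Of the 61 genes, 57 (93.4%) were well above background on both arrays. The other 4 reached that level on neither array and have no fold. They were Ezhip, which encodes an inhibitor of PRC2, Hdac11, the class IV HDAC, Kdm4d, an H3K9 demethylase, and Kdm5d, the Y-linked H3K4 demethylase. The probe of Kdm5d had an intensity of 6.28 without and 6.0 with IL-4. The Y-linked genes Ddx3y (1450 and 1710) and Eif2s3y (2730 and 3170) were well above background on both arrays, and the mice are stated to be male.

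No enzyme was at least 2-fold higher after IL-4, while 3.06% of all 14073 genes that were well above background on an array were, and none was at least 2-fold lower, where 3.35% were. At 1.5-fold, 1 enzyme (Tet2, 1.75% of the 57) was higher against 6.36% of all genes, and 0 were lower against 8.95%. These shares include genes well above background on 1 array only, and no enzyme was of that kind. Among the 12744 genes measured on both arrays, 641 were higher and 672 lower at 1.5-fold. For the 2-fold limit these counts were 295 and 184. The differences of the 57 enzymes had a median of -0.05 and quartiles of -0.16 and 0.06, and 46 of them (80.7%) lay within 0.25 of 0. Over the 12744 genes measured on both arrays the median was -0.01, the quartiles were -0.19 and 0.15, and 65.6% lay within 0.25 of 0. Differences over 0.5 in either direction made up 5.26% of the enzymes (3 genes) and 13.5% of all genes. The difference was below 0 for 39 enzymes (68.4%) and above 0 for 18, while 52.3% of all genes were below 0. Against the spot SD alone, which had a median of 0.058 over the enzymes, 11 were higher and 19 were lower by more than 2 spot SDs. The same count was not made for all genes, so it does not set the enzymes apart from them. It also leaves out the spread between cultures and depends on the scaling.

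**Figure D1:**
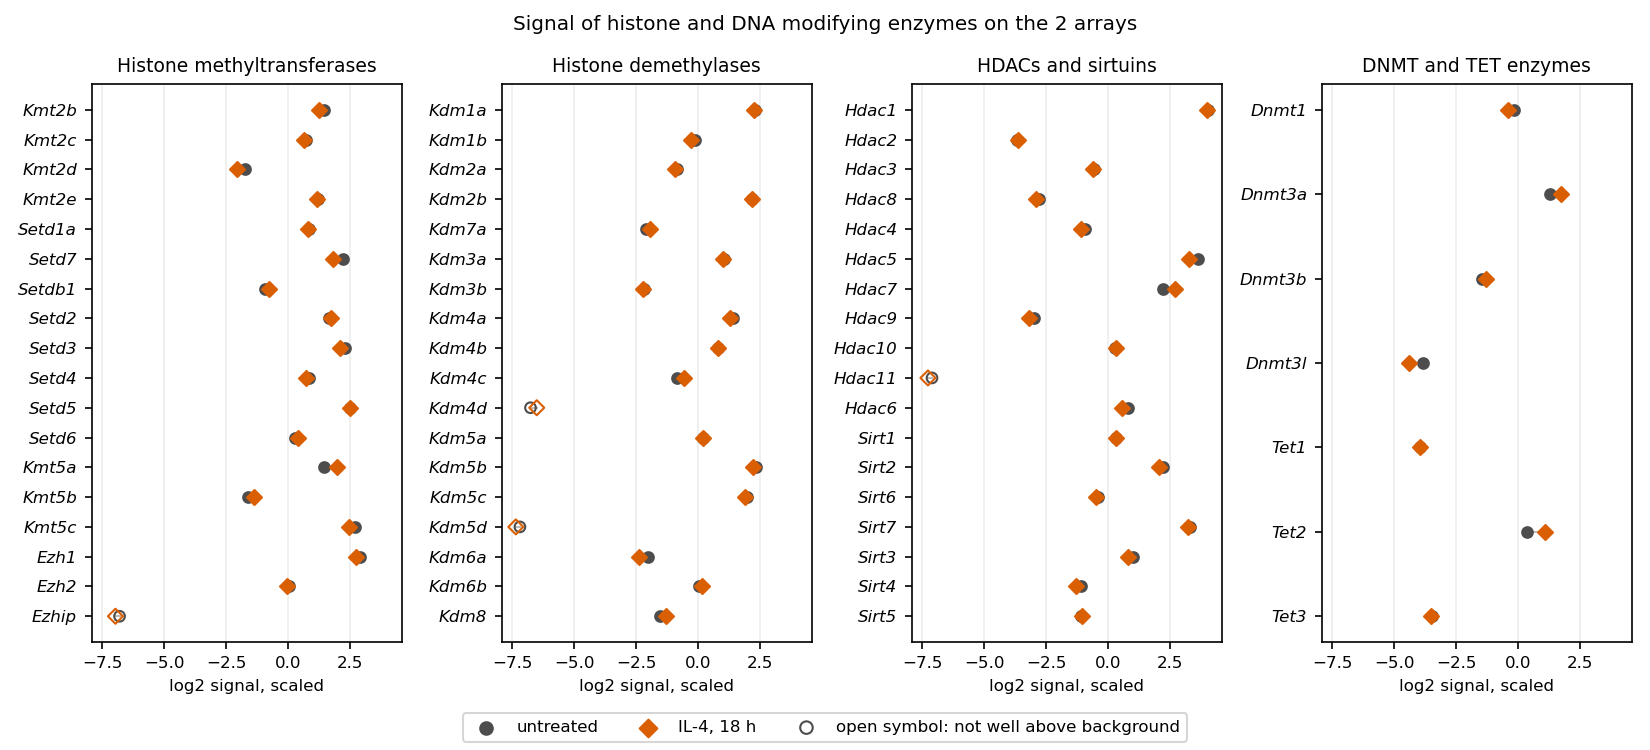
Scaled log2 signal (x axis) of each of the 61 enzymes in untreated BMDMs (grey circles) and after IL-4 for 18 h (orange diamonds), 1 array each, grouped by enzyme class, with open symbols for the 4 genes at background on both. The symbols of most enzymes lie on top of each other, and Tet2 shows the widest gap among the measured enzymes, from 0.35 to 1.07.

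**Figure D2:**
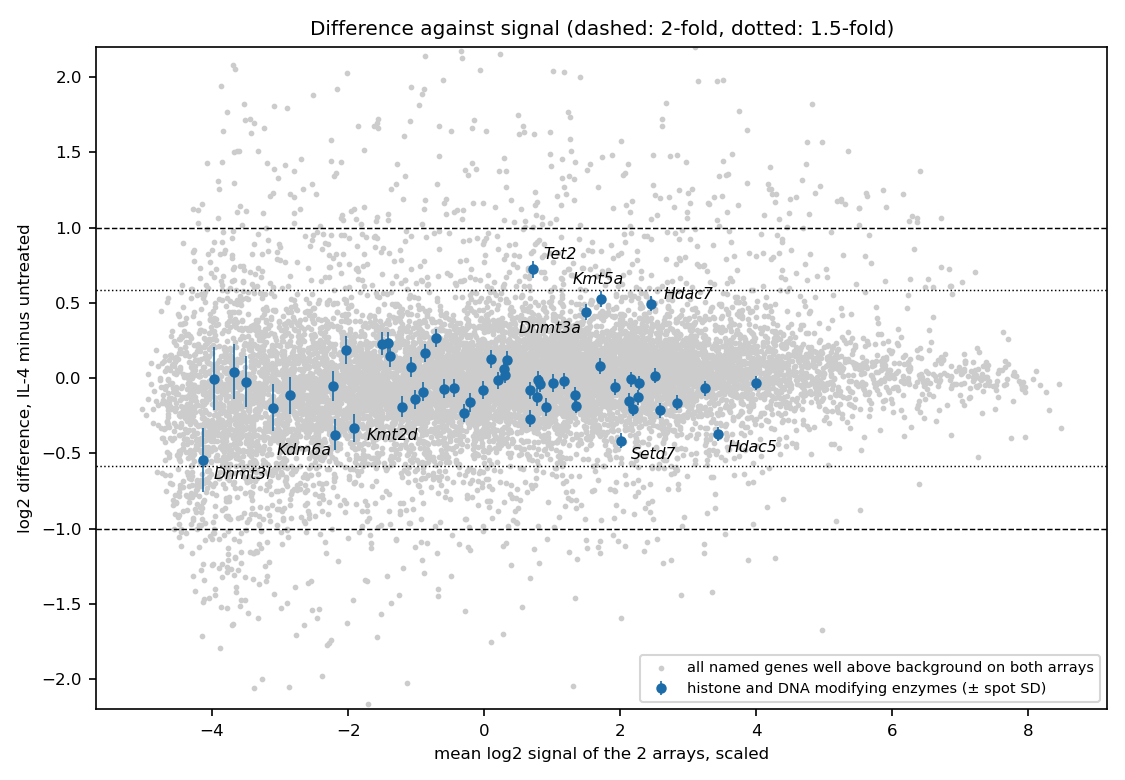
Log2 difference, IL-4-treated minus untreated (y axis), against the mean scaled log2 signal of both arrays (x axis) for 12744 genes well above background on both arrays (grey) and the 57 enzymes among them (blue, bars ± spot SD), where 47 genes lie beyond the axis limits of 2.2. Dashed lines mark 2-fold and dotted lines 1.5-fold, and Tet2 is the enzyme outside the dotted lines.

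Among the TET dioxygenases Tet2 was higher after IL-4, while the differences of Tet1 and Tet3 lay within the spot SD. The scaled log2 signal of Tet2, the TET enzyme most studied in myeloid cells, was 0.35 in untreated and 1.07 in IL-4-treated BMDMs, from intensities of 1170 and 2060. The difference was 0.72 ± 0.058 (spot SD), a 1.65-fold higher signal after IL-4. Its dimmer probe went from -1.60 to -0.94, a difference of 0.66 or 1.58-fold, so both Tet2 probes were higher on the IL-4 array. Over all alternative settings the difference of Tet2 lay between 0.67 and 1.04. Tet1 had a signal of -3.96 in untreated and -3.97 in IL-4-treated BMDMs, with a spot SD of 0.21. Tet3 went from -3.49 to -3.51, a difference of -0.02 ± 0.17, and its dimmest probe had a difference of -0.44 ± 0.21.

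The DNA methyltransferases went in different directions. Dnmt3a, a de novo methyltransferase, had a signal of 1.27 in untreated cells and 1.71 after IL-4, from intensities of 2210 and 3210, and the difference of 0.44 ± 0.052 was a 1.36-fold higher signal after IL-4. Dnmt1, which copies methylation onto newly made DNA, went from -0.18 to -0.42, a difference of -0.23 ± 0.061. Dnmt3a was read from 1 probe, was higher under every scaling and lay between 0.38 and 0.76, whereas Dnmt1 lay between -0.29 and 0.09 and turned sign with the scaling. Dnmt3l, a cofactor without catalytic activity that is best known from germ cells, went from -3.86 to -4.41. Its difference of -0.55 ± 0.21 came from a dim spot with intensities of 63.1 and 46.3. Dnmt3b, the other de novo methyltransferase, went from -1.46 to -1.31, a difference of 0.15 ± 0.072, but its 3 probes did not share a sign. The second probe had a difference of -0.13 and the dimmest one of 0.36. Uhrf1, which brings DNMT1 to replicating DNA, had a difference of -0.05 at its brighter probe but -0.29 as the median over its 2 probes. The 10 proliferation genes had a median of -0.03 and a range from -0.29 to 0.25.

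The catalytic subunits of PRC2 differed little, while Kdm6a, among the demethylases that oppose them, was lower after IL-4. Ezh1 went from 2.92 in untreated cells to 2.75 after IL-4, a difference of -0.16 ± 0.049, and its other 2 probes had differences of -0.10 and -0.23. Ezh2, the PRC2 enzyme of dividing cells, went from 0.03 to -0.05, a difference of -0.08 ± 0.059. Both turned sign under other scalings. Among the KDM6 demethylases of H3K27, Kdm6b (also named Jmjd3), which has been studied in macrophage activation, went from 0.04 to 0.16, a difference of 0.13 ± 0.057 that stayed above 0 under every scaling. Kdm6a (Utx), which is X-linked, went from -2.01 to -2.38, a difference of -0.38 ± 0.10, or 1.30-fold lower, and was below 0 under every scaling. Each of Kdm6a and Kdm6b was read from 1 probe. Uty, the Y-linked relative of Kdm6a, went from -4.18 to -3.51, but its dimmer probe had a difference of -0.42. The difference of the brighter Uty probe was 0.68, and 0.08 after another background correction (normexp).

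The class IIa HDACs, signal-responsive corepressors of MEF2 factors that recruit class I HDACs, were split. Hdac7 was 2.21 in untreated and 2.71 in IL-4-treated BMDMs, from intensities of 4240 and 6400, and the difference of 0.50 ± 0.049 was a 1.41-fold higher signal. Hdac5 went the other way, from 3.62 to 3.25, with intensities of 11200 and 9320 and a difference of -0.37 ± 0.048. Hdac4 went from -0.95 to -1.09, a difference of -0.14 ± 0.064, and Hdac9 from -3.01 to -3.20, a difference of -0.20 ± 0.16. Under every scaling Hdac7 was higher and Hdac5 lower after IL-4, while Hdac4 and Hdac9 turned sign. Each of the 4 genes was read from 1 probe, so no other probe could be set beside these values.

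At their brightest probes the remaining deacetylases had differences within 0.27 of 0. The class I HDACs, of which Hdac1, Hdac2 and Hdac3 encode catalytic subunits of the Sin3, NuRD and NCoR complexes, had differences from -0.12 (Hdac8) to 0.04 (Hdac2), with Hdac1 at -0.03 and Hdac3 at -0.07. Hdac2 was printed in 10 spots, and its own SD between spots was 0.21. In class IIb, Hdac6, the tubulin deacetylase, had a difference of -0.27 with -0.22 at its second probe, and Hdac10 had one of 0.06. The nuclear and cytoplasmic sirtuins ranged from -0.15 (Sirt2) to 0.02 (Sirt1), with -0.07 each for Sirt6 and Sirt7, and the mitochondrial sirtuins were at -0.19 for Sirt3, -0.19 for Sirt4 and 0.07 for Sirt5. Second probes were lower than these for Hdac8 (-0.48 ± 0.21), Sirt6 (-0.31 ± 0.12) and Sirt7 (-0.21 ± 0.061). Of these 13 measured genes, 4 were above 0 and 9 below 0 at the brightest probe, and 2 (Hdac10 and Sirt5) kept their sign, above 0, under every scaling.

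Among the histone methyltransferases the H4K20 enzymes spread most. Kmt5a (Setd8), which places the first methyl group on H4K20, went from 1.46 to 1.99, with intensities of 2520 and 3890 and a difference of 0.53 ± 0.053, or 1.44-fold. Its dimmer probe had a difference of 0.04. Kmt5b (Suv420h1), which adds further methyl groups, went from -1.61 to -1.38, a difference of 0.23 ± 0.075. Its other 2 probes, annotated to another transcript, had differences of -0.09 and -0.13, so the direction of Kmt5b rests on the probe. Kmt5c (Suv420h2) went from 2.69 to 2.47, a difference of -0.22 ± 0.050.

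All 6 genes grouped as H3K4 methyltransferases were below 0 at their brightest probe, as 52.3% of all genes were, with a median of -0.13. The range ran from -0.42 for Setd7 to -0.02 for Kmt2e, which belongs to the MLL family by sequence but is not known as an active methyltransferase and was at 0.005 at its second probe. Setd7, which adds 1 methyl group to H3K4 and also methylates other proteins, went from 2.22 to 1.80, with intensities of 4260 and 3430 and a difference of -0.42 ± 0.053, or 1.33-fold lower. Kmt2d (Mll4), an enhancer H3K4 methyltransferase, went from -1.74 to -2.07, a difference of -0.33 ± 0.092, and its second probe had one of -0.42. Under every scaling Setd7 and Kmt2d were below 0, while Kmt2b (-0.18), Kmt2c (-0.08), Setd1a (-0.04) and Kmt2e were not. Setdb1, an H3K9 methyltransferase, had a difference of 0.17. The other SET domain proteins, among them Setd2, the main H3K36 methyltransferase, at 0.08, ranged from -0.20 (Setd3, an actin methyltransferase) to 0.12 (Setd6).

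The demethylases other than KDM6 had small differences. Kdm4c, which acts on H3K9 and H3K36, had one of 0.27, and Kdm4a and Kdm4b had -0.11 and -0.01. The other values past 0.15 were those of Kdm8 (0.23), Kdm7a (0.18, with 0.28 at its second probe) and Kdm1b (-0.16), while Kdm1a (Lsd1) was at -0.03. The H3K9 demethylases Kdm3a and Kdm3b were at -0.03 and -0.05. The KDM5 demethylases of H3K4 ranged from -0.13 (Kdm5b) to -0.01 (Kdm5a). Kdm5c went from 1.96 to 1.90, a difference of -0.06 ± 0.053, but from -3.01 to -2.88 at its second probe, a difference of 0.13. Kdm2a, a demethylase of H3K36, went from -0.86 to -0.95 at the brighter probe, a difference of -0.09 ± 0.061, and from -0.97 to -0.84 at the other, a difference of 0.13. Kdm2b, which binds unmethylated CG islands, was at -0.01, with -0.35 at a much dimmer probe of its own.

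Agreement between probes of 1 gene gave a check within each array pair. The 61 enzymes had 91 probes, and 38 enzymes had 1 probe. Of the 20 enzymes with more than 1 probe well above background on both arrays, 14 had the same sign at every probe and 6 did not. In 4 of those (Dnmt3b, Kdm2a, Kdm5c and Kmt5b) probes of opposite sign each lay beyond their spot SD. The span between probes of a gene had a median of 0.13 and reached 0.49 for Dnmt3b and 0.48 for Kmt5a. The span for Tet2 was 0.07.

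**Figure D3:**
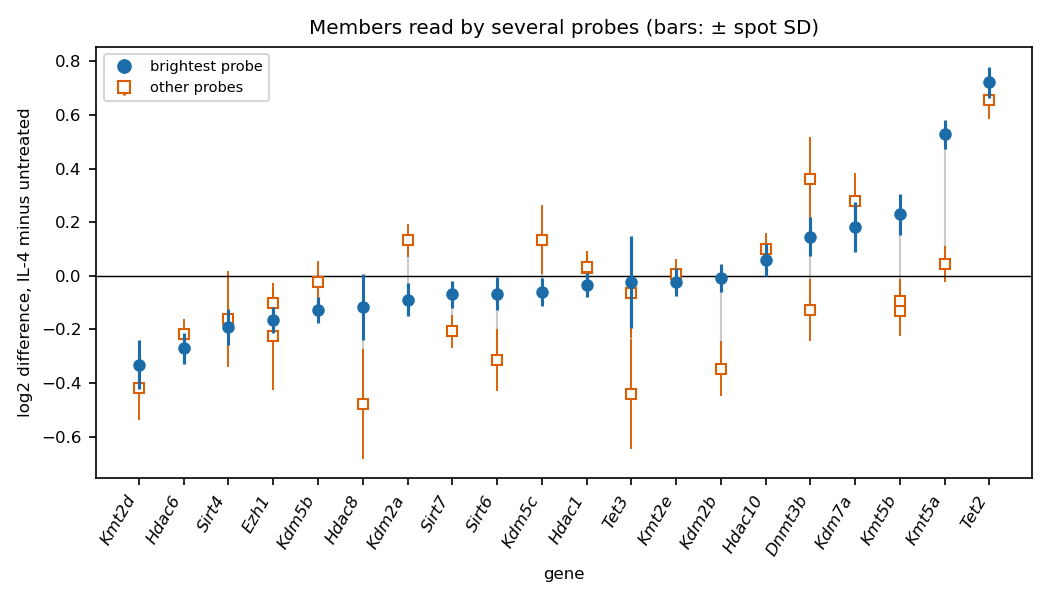
Log2 difference, IL-4-treated minus untreated (y axis), for every probe of the 20 enzymes read by more than 1 probe on both arrays (x axis), with blue circles for the brightest probe, open orange squares for other probes and bars for ± spot SD. Both Tet2 probes sit above 0.65, while the Kmt5a probes are 0.48 apart and the Dnmt3b and Kmt5b probes lie on both sides of 0.

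The scaling between arrays set the sign of most of these small differences. Under the 75th percentile scaling and 6 others, 15 enzymes were above 0 every time and 5 were below 0 every time, namely Dnmt3l, Setd7, Kdm6a, Hdac5 and Kmt2d. The other 37 turned sign with the scaling. Over the 7 scalings the median of all genes ran from -0.07 to 0.31, further above than below the -0.01 as reported. Small differences above 0, such as that of Hdac10 (0.06), could thus keep their sign where larger ones below 0 turned. Dnmt1 (-0.23) turned sign, though it lay 0.21 to 0.22 below the median of all genes under every scaling. With median scaling the median of all genes was 0.20 in place of -0.01, and scaling on 7 spike-in control probes it was 0.31. The median of the enzymes moved with it, to 0.16 and 0.27, and lay 0.04 to 0.05 below that of all genes under each of the 7 scalings (-0.04 as reported). Relative to the median of all genes, 18 enzymes were above it and 33 below it under every scaling, and 6 changed side. Neither these counts nor those relative to 0 were made for all genes. Tet2 lay 0.71 to 0.74 above the median of all genes under these scalings. Except for quantile normalization and cyclic loess, these scalings shift every gene by the same amount. Such a shift leaves values relative to that median unchanged by construction.

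**Figure D4:**
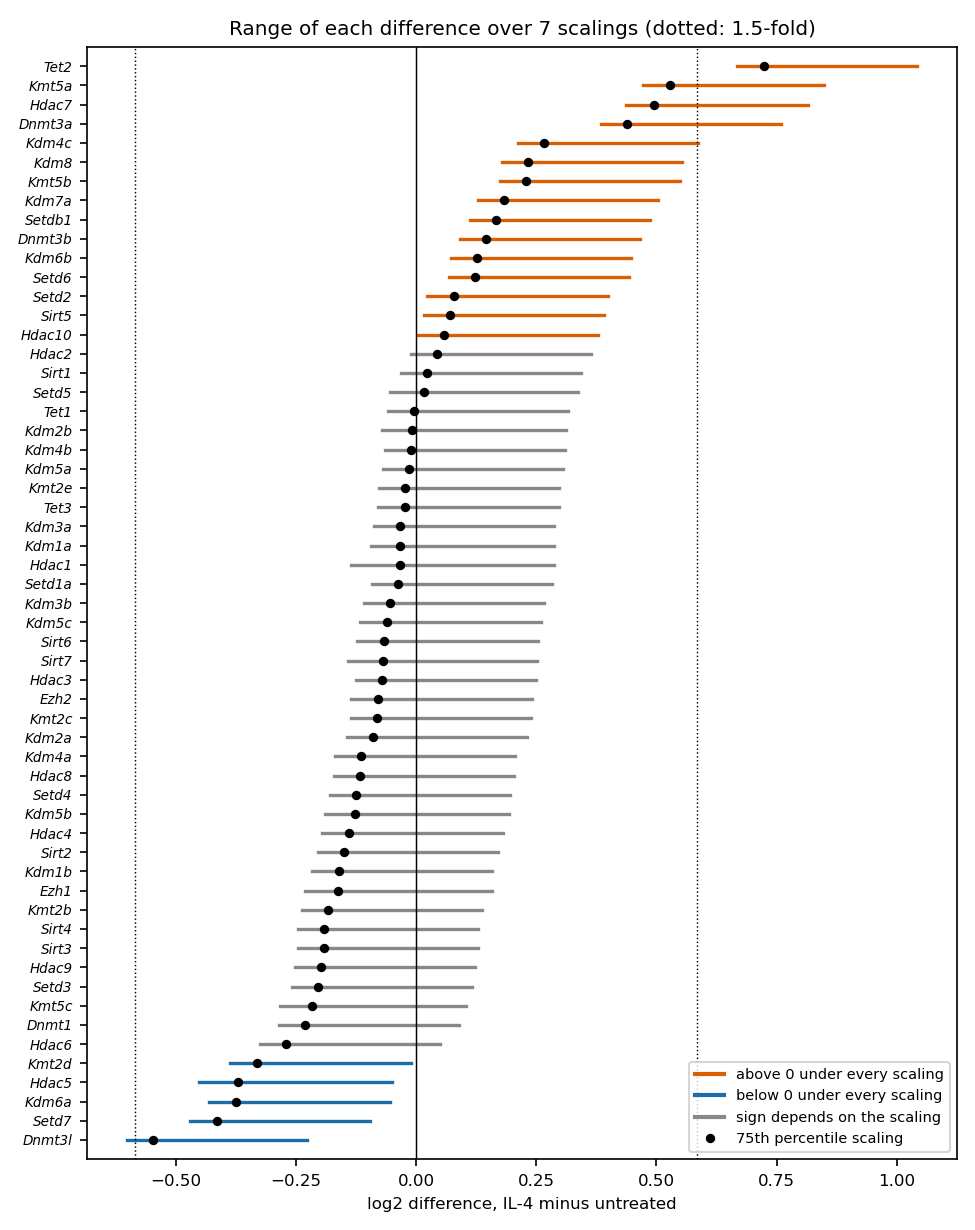
Range of the log2 difference, IL-4-treated minus untreated (x axis), over 7 scalings of the arrays for each of the 57 enzymes well above background on both arrays (y axis), where black points mark the 75th percentile scaling and dotted lines 1.5-fold. The ranges of 15 enzymes lie above 0 (orange), those of 5 lie below 0 (blue) and those of 37 span 0 (grey).

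Genes that work with these enzymes were read from lists of cofactors, corepressors, acetyltransferases, related enzymes and enzymes that supply their cosubstrates. Of 125 genes listed, all but 2 were matched and well above background on both arrays (Chd3 was matched to no probe and Nmnat2 was at background), and their median difference was -0.00. At least 2-fold higher were 2 (Ehmt1 and Hr) and none was at least 2-fold lower, against 3.06% and 3.35% of all genes. At 1.5-fold the counts were 7 higher and 4 lower, against 6.36% and 8.95%. These shares of all genes again include genes well above background on 1 array only. The partner counts at 1.5-fold turned on the scaling. They were 12 higher and 1 lower under median scaling and 18 higher and 0 lower under spike-in scaling. The 9 PRC2 cofactors had a median of 0.09 and none was past 1.5-fold, though 1 was with median, spike-in or no scaling. The 12 COMPASS cofactors, which serve the H3K4 methyltransferases, had a median of -0.02 and ranged from -0.21 to 0.22. The 21 HDAC corepressors (-0.01) and the 15 histone acetyltransferases (0.04) had no gene past 1.5-fold either, but 2 HDAC corepressors were at least 1.5-fold higher with median scaling and 3 with spike-in scaling.

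The partners past 1.5-fold were mostly other writers and erasers. Ehmt1 (Glp), an H3K9 methyltransferase, went from 3.91 to 5.73, 3.53-fold higher, but its second probe went from 1.32 to 1.09, a difference of -0.23. Suv39h2, another H3K9 methyltransferase, went from 4.09 to 4.94, 1.80-fold higher. Its second probe was at background on both arrays. Dot1l, the H3K79 methyltransferase, went from 0.84 to 1.43, 1.5-fold higher, and was under 1.5-fold in 4 alternatives, the lowest at 1.45-fold. Hr, an H3K9 demethylase, went from -4.30 to -2.57, 3.30-fold higher, and its difference of 1.72 was 0.69 after normexp. Riox2, a JmjC oxygenase, was 1.63-fold higher, and 1.38-fold with flagged spots kept. Ahcyl1, a relative of S-adenosylhomocysteine hydrolase, was 1.66-fold higher with 1.26-fold at its second probe, and Uty is given above.

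Lower after IL-4 were Apobec1, a cytidine deaminase, which went from 4.58 to 3.72 (1.82-fold), and Prmt5, an arginine methyltransferase, which went from 1.11 to 0.40 (1.63-fold). Prmt5 was under 1.5-fold with median and spike-in scaling, and Apobec1 with spike-in scaling. The arginine deiminases Padi4 and Padi2 were 1.54-fold and 1.51-fold lower, and were under 1.5-fold in 6 and 5 of the 12 alternatives. At their second probes Padi2 was 1.37-fold lower and Padi4 at least 1.64-fold lower, since that probe was at background after IL-4.

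**Figure D5:**
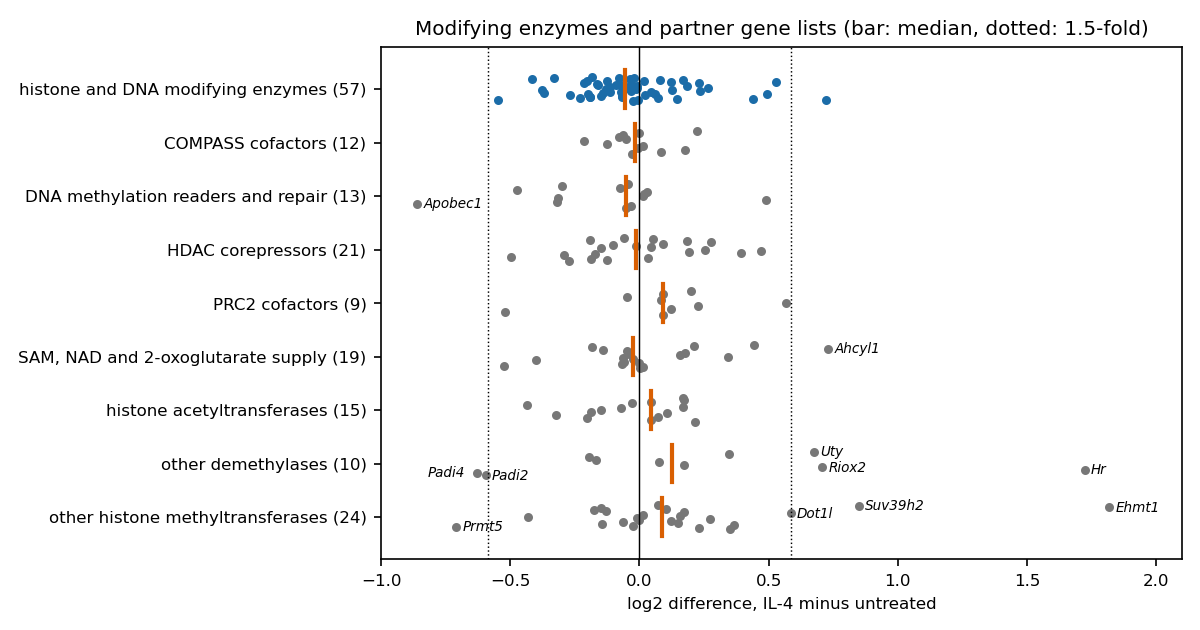
Log2 difference, IL-4-treated minus untreated (x axis), of the 57 enzymes (blue) and of the genes of 8 partner lists (grey) measured well above background on both arrays, each list followed by its number of genes in brackets, with an orange bar at each median and dotted lines at 1.5-fold. The medians of all lists lie between -0.05 and 0.12, and Ehmt1 and Hr lie farthest to the right.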

How the data were processed

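RNA of 1 untreated and 1 IL-4-treated BMDM sample was measured on single-colour Agilent arrays, which the labels assign to the groups. The authors deposited scanner output of Feature Extraction 10.10.1.1, whose intensity values are background-subtracted and not scaled between arrays. The second file the authors deposited is a table of their log2 values, with column medians of 0.16 and 0.02. Its scale and direction matched the scaled scanner differences within 0.01 for all but 2 of 39424 probes, none of them a probe of an enzyme, and its centring stays unknown.

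Outlier spots and control spots were left out (133 and 159 gene spots were flagged as outliers, 0 saturated), spots of a probe were averaged on the log2 scale, and each array's 75th percentile was subtracted. A gene was read from its brightest probe and named through RefSeq accessions (27229 of 39424 probes). Probes count as well above background by the software's flag for most spots. A probe above background on 1 array only gets a bound. The spot SD came from 259 probes printed in 10 spots, within 1 log2 unit of signal. The number of arrays limits the precision.

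Both levels were given for enzymes at least 1.5-fold changed, enzymes whose probes disagreed beyond the spot SD, and the EZH, DNMT, TET, KDM6 and class IIa HDAC groups. Other enzymes were given by group with examples, here the extremes, those that kept their sign under every scaling, and further ones named after their values were seen, and partners where at least 1.5-fold changed. Levels of Kmt5a, Kmt5c, Setd7 and Kmt2d were added after seeing the values. One item of the marker lists is not reported here. Enzymes and lists were chosen with earlier results of these data known. Counting of genes past a fold was checked on simulated data. The alternatives were 6 other scalings, normexp with an offset of 50, other filters on dim probes, the median over probes, flagged spots kept and the authors' table. Promoter windows were read from RefSeq (GRCm38.p6) and the probes were not placed on the genome. The tools were R 4.3.3 with limma 3.58.1 and Python 3.11.15 with pandas 2.3.3 and numpy 2.4.6.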

Additional observations from a re-analysis of the deposited data

How the results depend on the processing

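The count of enzymes at least 1.5-fold higher was 4 with median scaling (Dnmt3a, Hdac7, Kmt5a and Tet2), 3 with no scaling (Hdac7, Kmt5a and Tet2) and 5 with spike-in scaling (Kdm4c besides the 4), against 1 as reported. Partner genes past 1.5-fold, higher and lower, were 12 and 1 with median scaling and 18 and 0 with spike-in scaling, against 7 and 4. They were 9 and 2 with no scaling and 5 and 2 with normexp. With the median over probes they were 6 and 6, with 1 PRC2 cofactor and 1 HDAC corepressor among the lower. At least 2-fold higher were 3 partners with median scaling, 5 with spike-in scaling, 1 with normexp and 1 with the median over probes, against 2. With no filter on dim probes 1 partner was at least 2-fold lower, against 0. With spike-in scaling 1 enzyme, Tet2, was at least 2-fold higher. With the 75th percentile taken over the probes that both arrays measured well above background, 1 enzyme (Dnmt3l, -0.60) was at least 1.5-fold lower. The median difference of the enzymes was 0.16 with median scaling, 0.0453 with no scaling and 0.27 with spike-in scaling, against -0.05 as reported, as a scaling shifts all genes together. Under the other alternatives these counts did not move by over 1.5 times and the median moved by less than the enzymes' median spot SD of 0.058. Over 12 alternatives, 459 values of single enzymes moved by less than the spot SD and 225 by more. Part of the 459 could not move. The filters on dim probes leave enzymes measured on both arrays as they were, and the median over probes leaves those with 1 probe. The authors' table repeats the scanner differences within 0.01. Of the 57 enzymes, 13 were above 0 and 5 below 0 under every alternative, a count that was not made for all genes. No paired analysis was possible because each group holds a single array. Dim probes such as those of Dnmt3l, Tet1 and Tet3 carry the widest spot error. The spread between cultures was not measured.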
